A study of Mus musculus with 5 samples.

Results

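The genes described here encode the machinery by which a cell recognises and takes up apoptotic cells through phosphatidylserine, the membrane lipid that dying cells expose on their outer leaflet. They were chosen by name as 10 genes, of 12393 genes that a probe set of the array named alone, and every probe set annotated to one of them was read on all 5 arrays, which gave 15 probe sets. The bridging proteins are Gas6, Pros1 and Mfge8, the receptors are Axl, Mertk, Tyro3 and Stab1, and the engulfment proteins are Elmo1, Dock1 and Rac1. Of the 15 probe sets 10 were tested, and 1 of these rose after irradiation, that of Gas6, against 0.717% of all 15065 probe sets tested.

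The arrays measured endothelial cells, which line blood vessels, from thymuses of C57BL/6J females aged 6 to 8 weeks. The control group was 3 arrays of untreated mice (day 0), and the irradiated group was 2 arrays of mice taken 4 days after a sublethal total body irradiation of 550 cGy (SL-TBI) from a cesium source, with no hematopoietic rescue. In both groups the thymus was depleted of CD45-positive cells on magnetic columns, and cells that were CD45-, EpCAM- and VE-Cad+ were collected by flow sorting. Each array held cells of several pooled mice, and nothing in the labels says how many or which, so p-values measure only the spread between pools, which may be partly technical. The labels call the cells of the untreated group thymic endothelial cells and those of the irradiated group CD45- thymic stromal cells, while the protocol gives the same sort for both.

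As background, Gas6 and protein S, the product of Pros1, carry a vitamin K-dependent domain that binds phosphatidylserine, and their other end binds the receptor tyrosine kinases Tyro3, Axl and Mertk, known together as the TAM receptors. Mfge8 bridges the lipid to integrins instead, and Stab1 (stabilin-1) binds it directly. Engulfment then runs through Elmo1 and Dock1, which together activate the small GTPase Rac1 and so reorganise actin. In the thymus most developing T cells die in place, and irradiation kills many more at once. The study asked how thymic endothelial cells respond to such damage.

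All 18 endothelial marker genes read here lay above the level minimum, and 0 of them passed the test. Cdh5, which encodes the VE-cadherin of the sort, changed by -0.18 (limma adjusted p = 0.337) and the adhesion gene Pecam1 by 0.14 (adjusted p = 0.629). Markers of other cells were also read. Of all 8940 genes tested, with 1 probe set each, 0.884% were higher at day 4 and 0.794% lower (limma adjusted p under 0.05). Of 18 macrophage genes 3 were higher at day 4 and 0 lower, led by the scavenger receptor gene Cd163 (2.89) and the Fc receptor gene Fcgr1 (2.37). Cd163 and Spic, the remaining gene called, lay above the level minimum on the day 4 arrays only. The size of their rise therefore rests on background values at day 0. Of the 18, 16 had an unadjusted p under 0.05 (20.1% of all genes) and 16 had day 4 arrays above all day 0 arrays (18.0%). The list's median change was 1.47. The CD45 gene Ptprc, on this list as a gene of the sort and not of macrophages alone, changed by 0.0049 with an adjusted p of 0.994. Itgam was the 1 macrophage gene under the level minimum. The mean log2 level of the macrophage list was 5.53 to 6.39 on the day 0 arrays against 7.24 and 7.58 at day 4, and that of 10 thymocyte genes 5.69 to 6.49 against 4.12 and 4.24, with 5 of them lower, Rag1 and Satb1 first. Ms4a1 and Cd79b of the B cell list, S100a8 and S100a9 of the neutrophil list and Alas2, the 1 erythroid gene tested, were lower as well. Each of these, like Rag1, lay under the level minimum on both day 4 arrays, so the size of its fall rests on background values. Cd22, the other B cell gene tested, changed by 0.49 (limma adjusted p = 0.0994), with day 4 arrays above all day 0 arrays. Of 11 thymic epithelial, 11 fibroblast, and 10 pericyte and smooth muscle genes 0 passed the limma threshold. At an unadjusted p under 0.05 were 3, 4 and 1 of them, against 20.1% of all genes. Epcam changed by -0.48 (adjusted p = 0.582). In such bulk samples, fewer cells of a type and less RNA per cell cannot be told apart.

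A probe set was tested if its log2 signal was above 4 on at least 2 arrays. This held for 10 of the 15 member probe sets and for 9 of the 10 genes. Over all 15065 probe sets tested, 0.717% rose and 0.677% fell at a Benjamini-Hochberg adjusted p under 0.05 in limma. Of the 10 member probe sets tested, 1 rose and 0 fell, and 4 had an unadjusted p under 0.05, against 19.4% of all probe sets. The day 4 arrays lay above all day 0 arrays for 4 of the 10 (18.9% of all probe sets) and below them for 1 (20.7%). The median change of the 10 was 0.168 on the log2 scale, beside -0.0044 over all probe sets tested. With 10 probe sets of 9 genes these shares rest on few features and are given as a description.

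**Figure D1:**
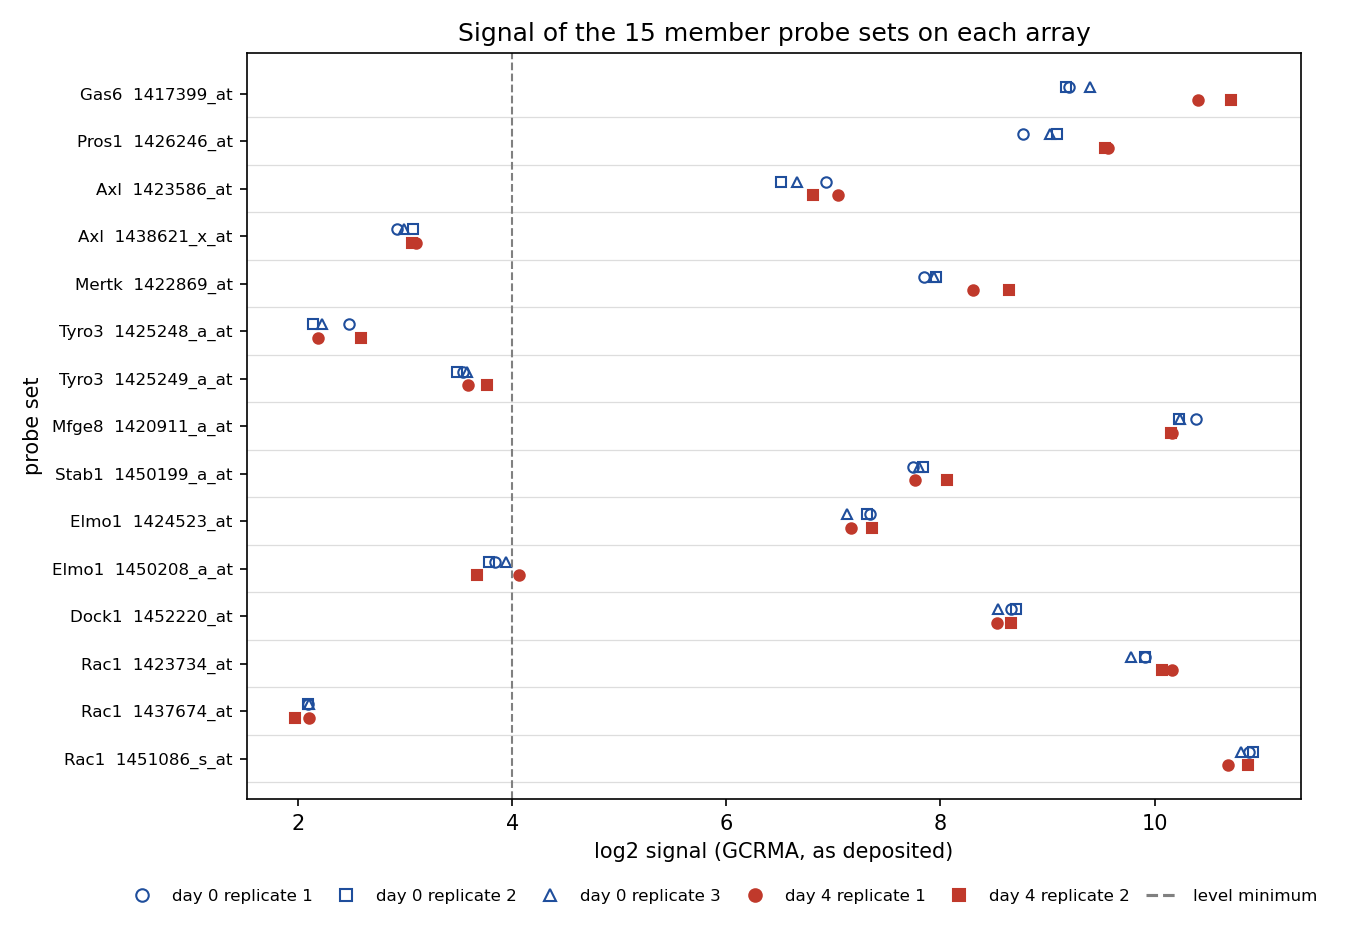
Log2 signal (horizontal axis) of each of the 15 member probe sets (rows) on each array, with open blue symbols for the 3 day 0 arrays, filled red symbols for the 2 day 4 arrays and a dashed line at the level minimum of 4. Positions are to be compared within a row, not between rows, and Gas6 shows the widest gap, with 9.17 to 9.40 at day 0 against 10.41 and 10.71 at day 4.

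Gas6, the ligand that activates all TAM receptors, was the member that rose. Its probe set 1417399_at read 9.20, 9.17 and 9.40 at day 0 and 10.41 and 10.71 at day 4. Both day 4 arrays lay more than 1 log2 unit above every day 0 array. The means were 9.26 ± 0.12 (SD, n = 3) and 10.56 ± 0.21 (SD, n = 2). The difference was a log2 change of 1.30 ± 0.13 (SE), or a 2.46-fold rise with a 95% interval of 1.96 to 3.09 (limma adjusted p = 0.0184). By p it ranked 49 among the 15065 probe sets, and by the size of its rise 114. Leaving out day 0 replicate 3 lost the call, at 1.37 and an adjusted p of 0.0682, and so did leaving out day 4 replicate 1, at 1.45 and 0.0829, although the change itself was no smaller. Over the 9 other settings that kept all arrays, the adjusted p lay between 0.00757 and 0.0355.

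Pros1 encodes protein S, an anticoagulant as well as a ligand of Tyro3 and Mertk. Its probe set 1426246_at read 8.77, 9.09 and 9.02 at day 0 and 9.57 and 9.54 at day 4. The groups did not overlap, and the day 4 arrays lay closer to each other than the day 0 arrays did. The means were 8.96 ± 0.17 (SD, n = 3) and 9.55 ± 0.020 (SD, n = 2). The log2 change of 0.59 ± 0.13 (SE), with a 95% interval of 0.29 to 0.90, did not pass over all probe sets (limma adjusted p = 0.0888).

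Mfge8, a secreted protein that links phosphatidylserine to alpha v integrins, did not rise. Its probe set 1420911_a_at read 10.39, 10.23 and 10.24 at day 0 and 10.16 and 10.15 at day 4, and both day 4 arrays lay just below the day 0 arrays. The change was -0.13 on the log2 scale, with a 95% interval of -0.37 to 0.11, and did not pass (limma adjusted p = 0.503). The upper bound corresponds to a 1.08-fold rise. Whether Gas6 and Mfge8 changed by different amounts was not tested.

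Mertk, the TAM receptor best known for the uptake of apoptotic cells by macrophages, had day 4 arrays above the day 0 arrays. Probe set 1422869_at read 7.85, 7.96 and 7.94 at day 0 and 8.30 and 8.64 at day 4. The means were 7.92 ± 0.057 (SD, n = 3) and 8.47 ± 0.24 (SD, n = 2), so the day 4 arrays differed from each other by more than the day 0 arrays did. The log2 change of 0.55 ± 0.13 (SE), with a 95% interval of 0.24 to 0.86, did not pass (limma adjusted p = 0.103). It was 0.39 without day 4 replicate 2 and 0.72 without day 4 replicate 1.

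Axl, the TAM receptor with the highest affinity for Gas6, did not separate the groups. Its probe set 1423586_at read 6.93, 6.51 and 6.66 at day 0 and 7.04 and 6.81 at day 4. Day 4 replicate 2 lay inside the day 0 range. The change was 0.23 with a 95% interval of -0.15 to 0.60 (limma adjusted p = 0.453). The second Axl probe set, 1438621_x_at, whose suffix marks probes that can bind other transcripts, lay between 2.92 and 3.10 on all 5 arrays, under the level minimum, and was not tested.

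Tyro3, the TAM receptor known mainly from the nervous system, lay under the level minimum with both of its probe sets on every array. Probe set 1425249_a_at read 3.48 to 3.58 at day 0 and 3.59 and 3.76 at day 4, and 1425248_a_at read 2.14 to 2.47 and then 2.18 and 2.59. Values this low are dominated by background, so they give no measure of a change and do not show that the transcript was absent. Without the level minimum, the adjusted p of the pair was 0.557 and 0.788 (limma).

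Stab1 is a scavenger receptor of sinusoidal endothelium and of some macrophages, and the groups overlapped for it. Probe set 1450199_a_at read 7.74, 7.84 and 7.80 at day 0 and 7.76 and 8.06 at day 4. Day 4 replicate 1 sat inside the day 0 range and replicate 2 above it. The change was 0.11 with a 95% interval of -0.18 to 0.40 (limma adjusted p = 0.641), and it had the opposite sign, -0.039, without day 4 replicate 2.

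**Figure D2:**
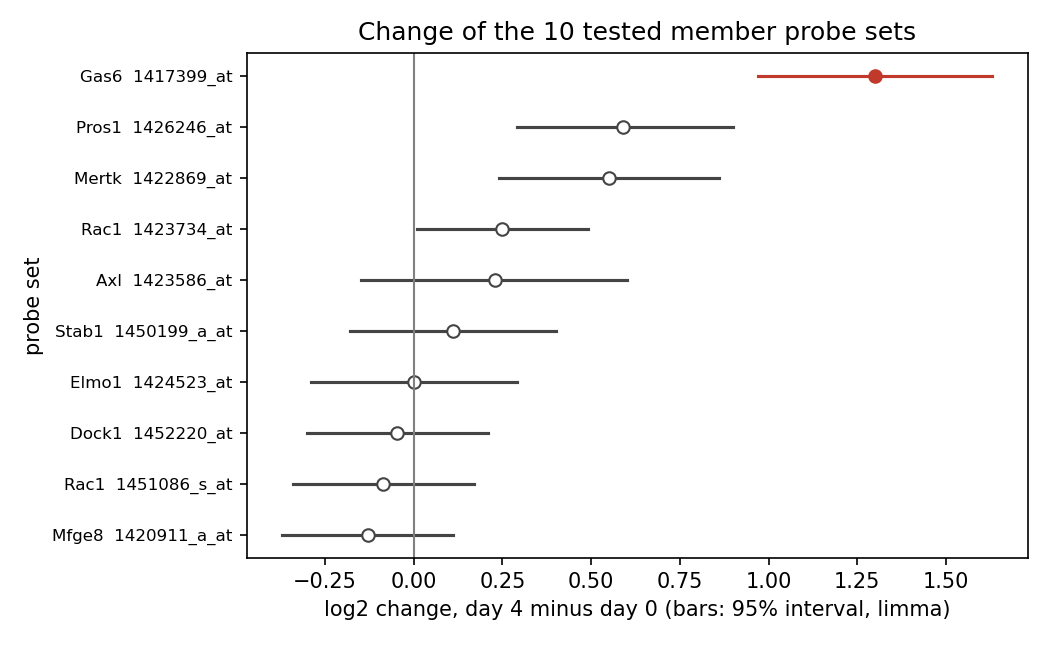
Log2 change, day 4 minus day 0 (horizontal axis), of the 10 member probe sets above the level minimum, with bars for the 95% interval of limma from 3 day 0 and 2 day 4 arrays. The filled red point is Gas6 at 1.30, the 1 member called, and the open points are the others, from -0.13 for Mfge8 to 0.59 for Pros1.

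Elmo1 and Dock1 form the exchange factor that loads Rac1 with GTP. Elmo1 probe set 1424523_at read 7.34, 7.31 and 7.13 at day 0 and 7.16 and 7.36 at day 4, so the day 4 arrays spanned almost the same range. Its change of -0.0003 had a 95% interval of -0.29 to 0.29 with a limma adjusted p of 0.999, and the interval corresponds to 0.818-fold to 1.22-fold. The other Elmo1 probe set, 1450208_a_at, read 3.67 to 4.06, above the level minimum on 1 array only, and was not tested. Dock1 probe set 1452220_at read 8.66, 8.71 and 8.54 at day 0 and 8.53 and 8.66 at day 4. Its change of -0.0464 had a 95% interval of -0.30 to 0.21 (limma adjusted p = 0.838).

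Rac1 was read by 3 probe sets that did not behave alike. Probe set 1423734_at read 9.91, 9.91 and 9.78 at day 0 and 10.16 and 10.07 at day 4, with the groups apart. Its log2 change of 0.25 ± 0.098 (SE) had an unadjusted p of 0.0434 and did not pass over all probe sets (limma adjusted p = 0.243). Probe set 1451086_s_at, annotated to the same cDNA record, read 10.88, 10.92 and 10.81 and then 10.69 and 10.87, with the groups overlapping. Its change was -0.0874, with a 95% interval of -0.34 to 0.17 (limma adjusted p = 0.671), and 0.0045 without day 4 replicate 1. The suffix of this set marks probes shared by transcripts of more than 1 gene. The third, 1437674_at, from an expressed sequence tag, read 2.09, 2.09 and 2.10 and then 2.10 and 1.97, far under the level minimum, and was not tested.

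The pair of Rac1 probe sets above the level minimum was compared within each array. The difference of 1423734_at minus 1451086_s_at was -0.97, -1.0 and -1.02 at day 0, and -0.53 and -0.80 at day 4. It was closer to 0 on both day 4 arrays, and the SD was 0.026 over the day 0 arrays and 0.19 over the day 4 arrays. The mean difference shifted by 0.34 log2 units. This is given as a description with no test, and the array alone does not say which of the sets follows the transcript. The mean of the Rac1 probe sets above the level minimum changed by 0.080 (limma adjusted p = 0.646). As a sign of RNA quality, the 3' minus 5' log2 difference of the actin control lay lower at day 4, and so did that of Gapdh. The actin values were 1.43 to 1.65 at day 0 and 1.35 and 1.39 at day 4, and the Gapdh values 0.90 to 0.96 and then 0.82 and 0.83. Its part in the Rac1 result was not tested.

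The promoters of Gas6, Pros1 and Mertk are shown because these members had the largest positive changes. RefSeq start sites (GRCm38.p6) were found for 9 of the 10 members, and each window holds 250 bases before the start and 50 after it. Capitals mark the GC box GGGCGG, searched on both strands with overlapping matches counted. The Gas6 window lies at chr8:13494486-13494785 on the minus strand, that of Pros1 at chr16:62854057-62854356 on the plus strand and that of Mertk at chr2:128698665-128698964 on the plus strand.
Gas6: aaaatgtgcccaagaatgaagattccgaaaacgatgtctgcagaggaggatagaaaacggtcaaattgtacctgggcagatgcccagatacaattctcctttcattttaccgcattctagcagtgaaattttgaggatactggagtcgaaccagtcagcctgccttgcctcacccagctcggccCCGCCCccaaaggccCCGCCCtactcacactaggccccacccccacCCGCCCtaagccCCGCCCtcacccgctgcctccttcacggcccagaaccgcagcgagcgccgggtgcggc
Pros1: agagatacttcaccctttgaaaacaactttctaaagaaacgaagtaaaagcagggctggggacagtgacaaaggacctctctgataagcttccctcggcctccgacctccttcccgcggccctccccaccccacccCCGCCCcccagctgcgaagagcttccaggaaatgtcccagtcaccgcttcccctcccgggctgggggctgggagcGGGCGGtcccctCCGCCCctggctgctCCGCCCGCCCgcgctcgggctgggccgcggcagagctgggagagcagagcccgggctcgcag
Mertk: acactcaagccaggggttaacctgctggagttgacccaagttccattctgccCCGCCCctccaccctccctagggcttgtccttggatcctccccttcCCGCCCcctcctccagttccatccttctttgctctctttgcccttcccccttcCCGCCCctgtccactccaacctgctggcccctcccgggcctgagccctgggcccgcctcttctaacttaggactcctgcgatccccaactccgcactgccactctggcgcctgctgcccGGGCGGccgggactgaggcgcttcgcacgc
The Gas6 window held 4 GC boxes, that of Pros1 5 and that of Mertk 4. The motif was found for 8 of the 9 members with a window and in 35.7% of all 32851 RefSeq promoter windows of this length, so it does not set these 3 apart. Their GC content was 58.3%, 66.7% and 66.0%, against a median of 52.7%. The nuclear receptor motif AGGTCA, also searched on both strands, was not found in any member's window and occurs in 16.3% of all windows. The p53 decamer motif was found once, in the window of Mertk, where it did not overlap a GC box, and occurs in 8.36% of all windows. These are letter matches and not measured binding.

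Because Mertk, Axl, Stab1 and the ligands are also known from macrophages, the members were set beside the macrophage list array by array. The macrophage mean was 6.39, 5.53 and 5.74 on day 0 replicates 1, 2 and 3 and 7.58 and 7.24 at day 4. It was highest at day 0 on replicate 1 and at day 4 on replicate 1. Gas6 was highest within day 0 on replicate 3 and within day 4 on replicate 2. Mertk differed by at most 0.11 between day 0 arrays, over which the macrophage mean differed by 0.86, and at day 4 it was higher on replicate 2. Axl, at 6.93, 6.51 and 6.66 and then 7.04 and 6.81, had the same order of arrays as the macrophage mean within each group, with a span of 0.42 at day 0. Between the groups the orders differed, since Axl was lower on day 4 replicate 2 than on day 0 replicate 1. Pros1 was lowest within day 0 on replicate 1 and, at 9.57 against 9.54, slightly higher at day 4 on replicate 1. The part of other cells in the Gas6, Pros1, Mertk and Axl values was not tested.

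**Figure D3:**
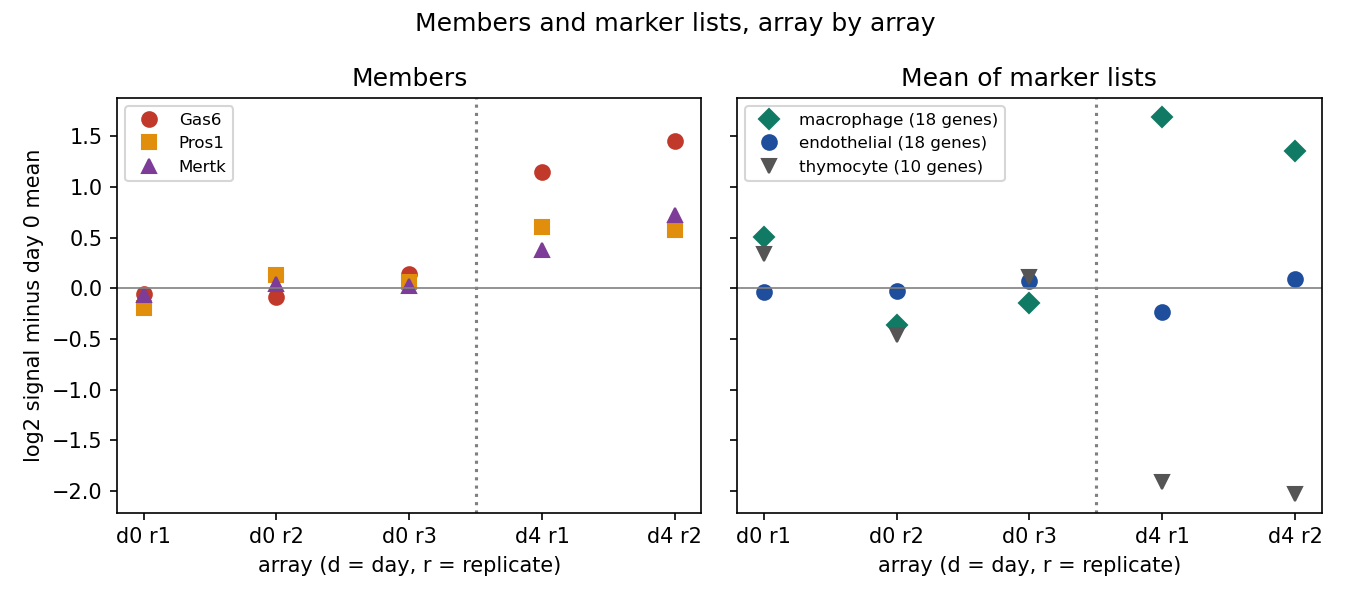
Log2 signal minus its day 0 mean (vertical axis) on each array (horizontal axis, d for day and r for replicate), for Gas6, Pros1 and Mertk on the left and for the mean of the macrophage, endothelial and thymocyte marker lists on the right. Gas6 and the macrophage list are higher on both day 4 arrays, with Gas6 highest on replicate 2 and the macrophage list on replicate 1, while the endothelial list, whose mean level is 10.02 to 10.34 over the 5 arrays, stays near 0 and the thymocyte list is lower.

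The probe sets of other genes that followed Gas6 most closely over the 5 arrays, by the mean absolute difference of centred log2 values, were those of Rps27l (0.0757), Dglucy (0.0929) and Exoc4 (0.0948). Rps27l read 9.85, 9.91 and 9.99 at day 0 and 11.03 and 11.14 at day 4. All 3 were higher at day 4, by 1.17, 1.49 and 1.48. Because they were picked for their likeness to Gas6, this rise was fixed by the choice and is no separate result. The likeness is a description over 5 arrays in 2 groups.

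Other genes of apoptotic cell clearance were read from 7 lists written from textbook knowledge, but with earlier results of these data known. Their shares are therefore given as a description. Of their 124 genes 90 were tested, with 1 probe set for each gene. Of these 90, 6 rose and 0 fell, against 0.884% and 0.794% of all 8940 genes in the same fit, and 32 had an unadjusted p under 0.05 against 20.1%. The 6 were the receptor genes Cd300a, Olr1 and Cd14, the lipid exporter gene Abcg1, the nucleotide receptor gene P2ry6 and Procr. The number of higher genes was 0 when day 0 replicate 3 or day 4 replicate 1 was left out, 1 when day 4 replicate 2 was, 2 when day 0 replicate 2 was and 7 when day 0 replicate 1 was. The changes themselves moved less, with 1.33 to 1.46 for Olr1, 1.21 to 1.46 for Cd14, 0.86 to 1.01 for Procr, 0.60 to 0.72 for Abcg1, 1.12 to 1.44 for P2ry6 and 1.26 to 1.97 for Cd300a. With array weights 1 passed, Olr1.

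Among other bridging molecules and opsonins, 0 of 10 genes passed the limma threshold, while 7 had an unadjusted p under 0.05 and 8 had day 4 arrays above all day 0 arrays (18.0% of all genes). Their median change was 1.48, beside -0.0233 over all genes. The largest change was that of C1qa, a chain of the C1q complex that coats dying cells. C1qa read 8.40, 6.90 and 7.60 at day 0 and 9.79 and 9.66 at day 4, a change of 2.09 (adjusted p = 0.0760). C1qa was highest at day 0 on replicate 1, the array with the highest macrophage mean, and C1qa, C1qc, Cfp and Lgals3 passed when that array was left out. Lgals3, which encodes galectin-3, a further ligand of Mertk, changed by 1.96 (adjusted p = 0.0647) and Thbs1, which encodes thrombospondin-1, by 0.69 (adjusted p = 0.0735). Anxa5, whose product binds phosphatidylserine and is used as a stain for it, differed by 0.0507 (adjusted p = 0.811).

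Among other receptors for apoptotic cells, 3 of 15 rose and 0 fell, with a median of 0.15. Olr1, a scavenger receptor for oxidised lipoprotein that is expressed by endothelium, read 4.12, 4.32 and 4.14 at day 0 and 5.52 and 5.64 at day 4. Its arrays were tight within each group, and the change of 1.39 ± 0.11 (SE) was a 2.63-fold rise from a level just above the minimum (limma adjusted p = 0.00831). Cd300a, a phosphatidylserine receptor of leukocytes, rose by 1.61 (adjusted p = 0.0486), and by 1.60 and 1.59 with adjusted p of 0.0511 and 0.0504 after quantile normalization and median centring. Cd14, which also tethers apoptotic cells, rose by 1.30 (adjusted p = 0.0344). Stab2, the relative of Stab1, read 6.27, 6.98 and 5.01 and then 4.70 and 5.14, so its groups overlapped (-1.17, adjusted p = 0.298). The integrin subunit genes Itgav (0.0849) and Itgb5 (0.22), whose products form a receptor for Mfge8, and the scavenger receptor gene Cd36 (-0.12) did not pass.

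The genes that activate Rac and drive actin during engulfment gave 0 calls among 22 tested, with 4 at an unadjusted limma p under 0.05 and a median of -0.021. Elmo2, the relative of Elmo1, changed by 0.0245, the adaptor gene Crk by -0.0186 and Rhog, which recruits Elmo1 to the membrane, by -0.0519. The exchange factor gene Vav3 had the smallest p of the list, at -0.43 (adjusted p = 0.0917). Rac2, the Rac gene of blood cells, read 5.25 to 5.75 at day 0 and 5.13 and 5.01 at day 4 (-0.40, adjusted p = 0.257). Like Elmo1, Dock1 and Rac1, none of these passed.

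Genes that expose or hide phosphatidylserine, the scramblases and flippases, gave 0 calls among 7, with 2 at an unadjusted limma p under 0.05 and a median of -0.12. Plscr2, a phospholipid scramblase gene, read 7.11 to 7.47 at day 0 and 6.57 and 6.23 at day 4, a change of -0.91 (adjusted p = 0.0613). Plscr2 passed downward with a level minimum of 6, with 1 probe set or the mean of probe sets per gene and with an intensity trend and robust fitting.

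Of 17 genes of phagosome digestion and lipid handling, the cholesterol exporter gene Abcg1 was the 1 that rose. It stood at 8.37 ± 0.032 (SD, n = 3) at day 0 and was 1.58-fold higher, at 9.04 ± 0.084 (SD, n = 2), at day 4, with a limma adjusted p of 0.0380. Its partner Abca1 changed by 0.73 (adjusted p = 0.0705) and the cathepsin gene Ctsb by 0.64 (adjusted p = 0.0695), and the list had a median of 0.15. Abcg1 did not pass under array weights (adjusted p = 0.0811) or without any single array (0.0647 to 0.143).

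Of 9 genes for signals that draw or repel phagocytes, P2ry6, a receptor for nucleotides released by dying cells, rose by 1.26 (limma adjusted p = 0.0484). Both day 4 arrays read 7.03, and the day 0 arrays 6.14, 5.49 and 5.68, so that at day 0 it too was highest on replicate 1. Cx3cl1, the endothelial chemokine that attracts macrophages, changed by -0.45 (adjusted p = 0.0848), while its other probe set gave -0.02. The list's median was 0.0080.

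The last list held genes that process or restrain the TAM system, and Procr, which is linked to it through protein S. Of the list 1 of 10 passed, Procr, and the median was 0.12. Procr, the endothelial receptor of protein C, for which protein S is a cofactor, read 8.99, 9.28 and 8.99 at day 0 and 10.04 and 9.95 at day 4. It rose by 0.91 ± 0.13 (SE), with the groups apart (limma adjusted p = 0.0363). Ggcx, the carboxylase that matures Gas6 and protein S, changed by 0.0855 (adjusted p = 0.657), and Vkorc1, which recycles its vitamin K, by -0.20 (adjusted p = 0.289). Adam10, a protease that sheds receptors from the cell surface, changed by -0.41 (adjusted p = 0.103), while its other probe sets gave -0.12 and 0.13.

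**Figure D4:**
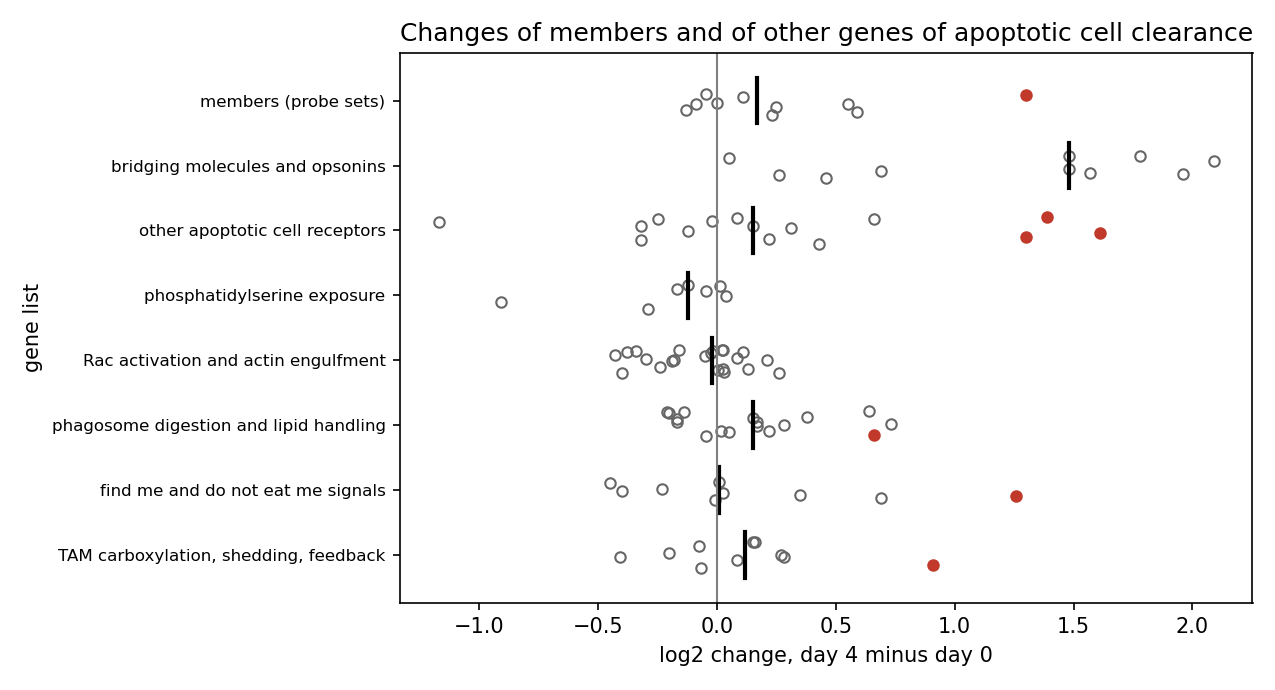
Log2 change, day 4 minus day 0 (horizontal axis), of the 10 tested member probe sets and of the tested genes of 7 other lists (rows), 1 point each, with filled red points for an adjusted p under 0.05 and a black bar for the median. The bridging list has the highest median at 1.48 with 0 called points, the receptor list has 3 called points, and the Rac list lies around 0.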

How the data were processed

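Gene expression was measured on single-colour Affymetrix MOE 430 A 2.0 arrays, 3 of untreated mice and 2 of irradiated mice. The authors deposited 1 log2 value per probe set and array, which the submitters' processing notes credit to GCRMA. Neither the GCRMA version nor the set of arrays normalized at once is given in the sources used here. The method corrects background by probe sequence, which spreads low values, and normalizes arrays to a common distribution, hiding any change most genes share. The table has no detection calls. The log2 scale was read from the values (1.57 to 14.4, array medians 5.26 to 5.30). No label gave a batch.

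Of 22690 probe sets, 64 controls were left out, 20380 carried 1 gene symbol by the platform annotation, 691 several and 1555 none. Entrez identifiers of 20351 matched RefSeq and changed 0 symbols. Probe sets above a log2 value of 4 on at least 2 arrays (15065) were fitted in R 4.3.3 with limma 3.58.1 (lmFit, eBayes), day 4 minus day 0, two-sided, with no covariate, 3 residual and 3.09 prior degrees of freedom. P-values were adjusted by Benjamini-Hochberg over all of them. Other genes were counted by their probe set with the highest mean. Among the other genes named, Procr, Vav3, S100a8 and Exoc4 were read by sets with the suffix _s_at. Spic and Rps27l were read by sets with _x_at. Both suffixes mark probes that can bind other transcripts. The number of arrays limits the precision.

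The members and lists were chosen with earlier results of these data known. Named were every member probe set, the sort genes, up to 2 called genes per direction of each list, up to 2 called genes of each marker list, and the 3 probe sets nearest to the member called with the largest change. Other list genes, among them Cd14 and Spic as further called genes, were named for their role or for their values after these were seen. The alternatives were quantile normalization, median centring, no level minimum or one at 6, 1 probe set or the mean per gene, trend with robust fitting, a block for the replicate number, array weights, an adjusted p under 0.1 and leaving out each array. The within-array difference of the Rac1 pair was added after the values were seen.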

Additional observations from a re-analysis of the deposited data

How the results depend on the processing

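Gas6 kept its direction under all 14 alternatives, at 1.15 to 1.45, and its call under 12 of them. Pros1 (0.49 to 0.66), Mertk (0.39 to 0.72), Axl, Mfge8 and Rac1 1423734_at kept their direction and did not pass an adjusted p of 0.05 under any. Leaving out 1 array in turn gave changes of -0.039 to 0.26 for Stab1, -0.099 to 0.098 for Elmo1, -0.11 to 0.016 for Dock1 and -0.18 to 0.0045 for Rac1 1451086_s_at, so these have no settled sign. The mean of the Rac1 probe sets was 0.080. Leaving out 1 array gave 0 to 1 member probe sets higher, 0 to 7 higher genes of the other lists, and 6 to 128 higher and 9 to 111 lower probe sets overall. At an adjusted p under 0.1, 2 member probe sets were higher, those of Gas6 and Pros1, with 13 higher and 3 lower genes of the other lists and 348 higher and 309 lower probe sets overall. Array weights left 1 higher gene of the other lists, and 32 higher and 21 lower probe sets overall. An intensity trend with robust fitting gave 163 higher probe sets. Under 5 settings (level minimum of 6, 1 probe set or the mean per gene, trend with robust fitting, replicate block) 1 gene of the other lists was lower, against 0.

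With the replicate block 9 genes of the other lists were higher and Stab2 was lower, Abcg1 (adjusted p = 0.0855) and Procr (0.0518) did not pass, and Gas6 kept its call. In the same fit 217 probe sets were higher and 184 lower, against 108 and 102. The numbers are shared by 2 pairs only, whose deviations from the group means correlated with r of 0.196 and 0.084. Pairs with unlike numbers gave -0.196, -0.084, -0.137 and 0.137. With 2 day 4 arrays each r comes with its negative by construction, so these values cannot show a pairing. No label says that a number marks a shared batch. The cause of the differences between the fits was not tested. With 3 and 2 arrays, and no detection calls, changes of Tyro3 and of others near the background cannot be measured here.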
